A study of Mus musculus with 6 samples.

Results

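The antioxidant and glutathione genes are the enzymes that remove superoxide, peroxides and reactive electrophiles, with the thioredoxin proteins that return oxidised thiols to the reduced state. They were taken by symbol from the array's annotation: glutathione peroxidases (Gpx), peroxiredoxins (Prdx), superoxide dismutases (Sod), cytosolic and microsomal glutathione transferases (Gst, Mgst), thioredoxins and their relatives (Txn), quinone reductases (Nqo), heme oxygenases (Hmox), the subunits of glutamate-cysteine ligase (Gcl) and catalase (Cat). Of 14860 genes with a probe of 1 symbol, 56 met this rule, each with 1 probe. Expression was measured in the hippocampus of 3 transgenic mice that the labels call HGPS, and of 3 wildtype mice, all aged 63 weeks, with 1 Affymetrix array per animal. HGPS usually stands for Hutchinson-Gilford progeria syndrome, in which a mutant lamin A leads to premature ageing. The labels name neither the transgene's promoter nor strain or sex. Levels are log2 values, so a difference of 1 is a 2-fold difference. All 14 measured neuron markers lay above the array's median on all 6 arrays.

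Superoxide dismutases turn superoxide into hydrogen peroxide, which catalase, glutathione peroxidases and peroxiredoxins then reduce. Glutathione peroxidases draw on glutathione, which is made in steps that begin with glutamate-cysteine ligase, and peroxiredoxins draw on thioredoxin. Many of these genes are targets of the transcription factor NRF2 (gene Nfe2l2), which binds antioxidant response elements and is held in check by KEAP1. In the brain, astrocytes carry much of the glutathione supply of neurons.

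Before the results, the animals need a description, because wildtype replicates 2 and 3 stood apart from the other 4. On average the Y-linked genes Eif2s3y and Kdm5d stood at a log2 level of 4.67, 4.78 and 4.70 in the transgenic animals, against 4.63, 8.41 and 8.45 in wildtype replicates 1, 2 and 3. This Y-linked signal was therefore high in wildtype replicates 2 and 3 alone. Relative to the mean over all 6 arrays, 16 meningeal fibroblast markers were at 0.20 to 0.42 in the transgenic animals, against 0.20, -0.54 and -0.63 in wildtype replicates 1, 2 and 3. The 10 choroid plexus markers were at 0.52, -0.22 and 0.61 in transgenic replicates 1, 2 and 3, against 0.50, -0.49 and -0.91 in the wildtype animals. The 18 endothelial markers were at 0.16, 0.11 and 0.08 in the transgenic animals, against 0.00, -0.22 and -0.13 in the wildtype animals, so that all wildtype animals, replicate 1 included, lay below. All 16, all 10 and all 18 had a group mean above that of wildtype. An unadjusted p under 0.05 was found for 12 meningeal, 1 choroid plexus and 9 endothelial markers, and none passed a false discovery rate of 10%. Over all probes 49.9% had a group mean above that of wildtype, and 5.81% were higher with such a p. The part of tissue makeup and of sex in the results below was not tested, and in such bulk samples fewer cells of a type cannot be told apart from less RNA per cell. Genotype and the traits particular to these animals cannot be told apart.

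Promoters are shown for the pair of genes with the smallest p values, which are neighbours, and for a pair that hold an antioxidant response element core. RefSeq gives GRCm38.p6 promoter sequences, of 250 bases before to 50 after a gene's start, for 49 of the 56 genes. The core searched, on both strands, was TGACNNNGC, in which N is any base. Matches are in capitals.
Gstt3, minus strand, chr10:75781365-75781664: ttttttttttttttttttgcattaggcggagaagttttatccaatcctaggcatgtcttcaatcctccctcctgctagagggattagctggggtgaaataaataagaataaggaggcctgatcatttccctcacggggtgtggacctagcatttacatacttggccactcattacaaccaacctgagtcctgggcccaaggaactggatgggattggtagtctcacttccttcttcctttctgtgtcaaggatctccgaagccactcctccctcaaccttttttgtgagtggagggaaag
Gstt1, minus strand, chr10:75797682-75797981: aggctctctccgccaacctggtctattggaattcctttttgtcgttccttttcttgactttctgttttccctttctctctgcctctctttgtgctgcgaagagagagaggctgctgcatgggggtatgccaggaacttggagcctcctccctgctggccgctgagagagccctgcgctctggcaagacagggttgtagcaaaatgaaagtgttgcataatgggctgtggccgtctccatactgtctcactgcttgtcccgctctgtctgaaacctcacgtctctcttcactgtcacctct
Prdx1, plus strand, chr4:116685349-116685648: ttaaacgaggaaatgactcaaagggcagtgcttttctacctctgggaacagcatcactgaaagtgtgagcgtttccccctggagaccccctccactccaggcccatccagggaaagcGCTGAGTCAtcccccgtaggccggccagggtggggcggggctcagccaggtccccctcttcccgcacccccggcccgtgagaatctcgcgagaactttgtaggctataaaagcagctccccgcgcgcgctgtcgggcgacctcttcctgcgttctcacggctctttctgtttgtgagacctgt
Gstm5, plus strand, chr3:107895604-107895903: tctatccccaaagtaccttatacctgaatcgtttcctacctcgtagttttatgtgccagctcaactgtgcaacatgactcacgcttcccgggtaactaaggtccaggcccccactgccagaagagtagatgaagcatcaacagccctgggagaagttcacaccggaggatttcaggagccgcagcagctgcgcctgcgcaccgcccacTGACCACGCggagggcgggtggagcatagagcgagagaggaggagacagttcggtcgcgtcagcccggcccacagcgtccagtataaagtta
The core was present in 8 of the genes' 66 promoter sequences, or 12.1%, and in 12.4% of all 32851 promoters. Neither the Gstt3 nor the Gstt1 window held it. In Prdx1 it began at position -133 and in Gstm5 at position -42 from the start site. The other holders were Gsta3, Gstm7, Mgst1, Txndc2, Txndc5 and Txndc11. The log2 differences of these 8 genes between transgenic and wildtype animals ran from -0.10 in Gstm5 to 0.30 in Mgst1. A match describes the letters of the window and does not show a binding site.

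The comparison of transgenic with wildtype animals addressed which of these genes differed in hippocampus at this age. None of the 56 passed a false discovery rate of 10% in limma, where 0.0467% of the 14996 tested probes did. Their lowest adjusted p was 0.431. At an unadjusted p under 0.05 there were 6 genes, Gstt3, Gstt1, Gpx7, Gpx8, Sod3 and Gpx1, all higher in the transgenic animals. That is 10.7% of the genes, and 10.6% of all probes had such a p, so the number of differences was close to the background. By direction, 6 of 56 were higher and 0 lower, against 5.81% and 4.8% of all probes. The groups did not overlap in 5 genes, 8.93%, all higher, while 9.14% of all probes were higher without overlap and 8.55% lower. More broadly, 37 of the 56 genes had a difference above 0, 66.1% against 49.9% of all probes, and their median was 0.08 against a median of 0.00 over all genes.

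The precision of the arrays bounded most of these differences. The 95% interval lay within 2-fold in either direction for 54 of the 56 genes, or 96.4%, where 98.3% of all probes met this. It lay within 1.5-fold for 49 genes, 87.5% against 91.9% of all probes. The exceptions to the wider bound were Gpx8 and Txnip.

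**Figure D1:**
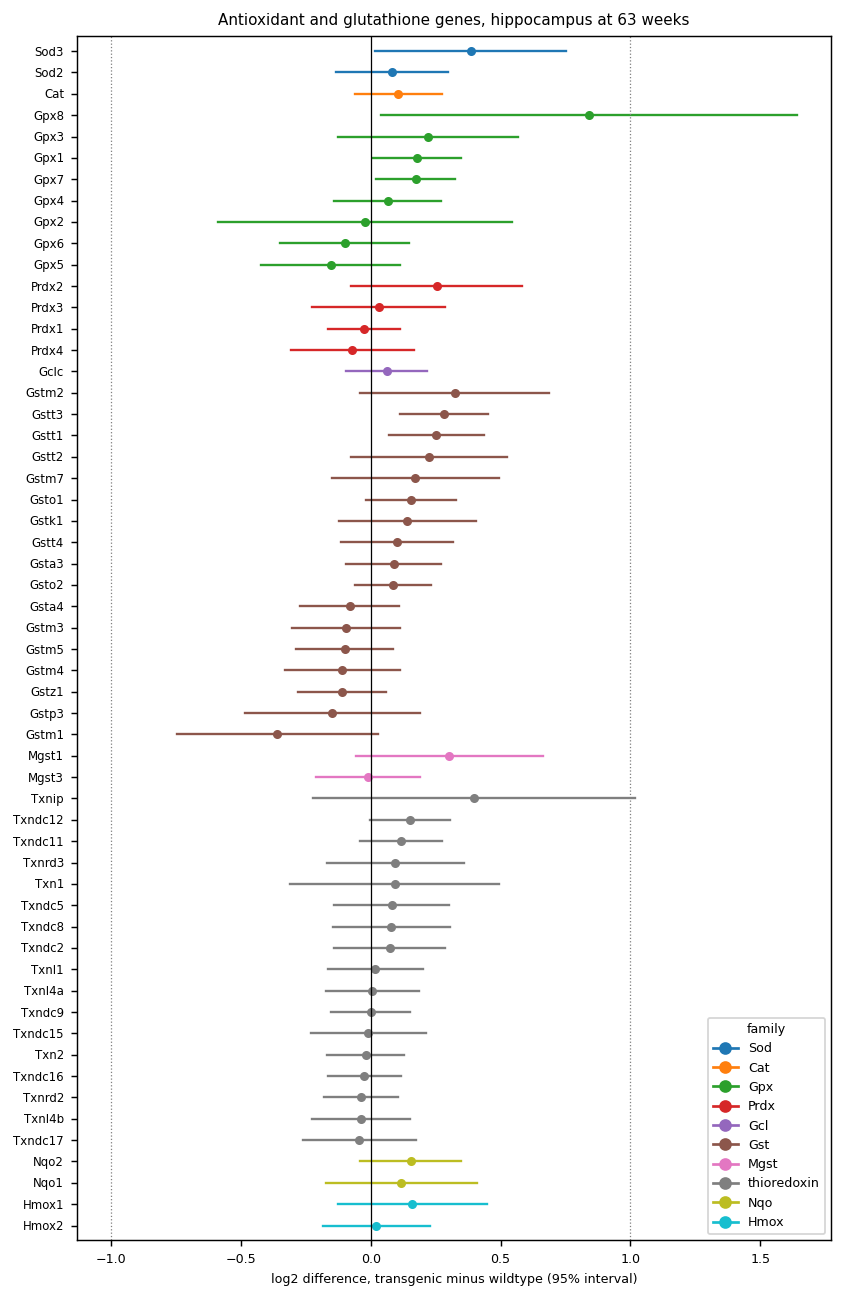
Log2 difference of each of the 56 genes, transgenic minus wildtype, on the horizontal axis, with its 95% interval from limma (n = 3 per group), coloured by family. Dotted lines mark 2-fold differences, and the interval reaches past them in Gpx8 and Txnip only.

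Superoxide dismutases and catalase act first in the chain. Sod3, the extracellular superoxide dismutase bound to matrix around vessels, had 8.37, 8.08 and 8.12 in the transgenic animals, against 8.12, 7.51 and 7.78 in wildtype replicates 1, 2 and 3. The groups overlapped, with wildtype replicate 1 level with transgenic replicate 3, above transgenic replicate 2, and the other wildtype animals lower. Its difference was 0.38 ± 0.16 (SE, limma adjusted p = 0.462), or 0.08 with Y-linked signal as a covariate. Sod2, the mitochondrial manganese enzyme, averaged 11.32 ± 0.16 in transgenic and 11.24 ± 0.05 in wildtype animals (SD, n = 3 each), and the groups overlapped. Cat had 10.73, 10.73 and 10.81 in the transgenic animals, against 10.76, 10.57 and 10.62 in wildtype animals. Here too wildtype replicates 2 and 3 were the lowest arrays, and the interval of the difference was -0.06 to 0.27. The cytosolic enzyme Sod1 had no probe with 1 symbol and was not analysed here, and the same held for Gclm, Txnrd1, Prdx6 and Gstp1.

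Among the 8 glutathione peroxidases 5 were above 0 and 3 below, and 3 had an unadjusted p under 0.05. Over all probes 49.9% were above 0 and 10.6% had such a p, which is also the background for the families that follow. Gpx8, a peroxidase anchored in the endoplasmic reticulum membrane, had the largest difference of the 56 genes. It had 9.18, 8.80 and 9.31 in the transgenic animals, against 9.07, 8.03 and 7.66 in wildtype replicates 1, 2 and 3. Wildtype replicate 1 lay inside the transgenic range, and the other wildtype animals lay below every transgenic animal. The difference was 0.84 ± 0.34 (SE, limma adjusted p = 0.462), or 179% of the wildtype level, with an interval of 0.04 to 1.64. It was 0.04 with Y-linked signal as a covariate and 1.25 without wildtype replicate 1, where Gpx8 was the only one of the 56 to pass (limma adjusted p = 0.0679). Within the transgenic group Gpx8 was lowest in replicate 2 and highest in replicate 3. The mean of the choroid plexus markers had this order, though not every marker did, Slc13a4 being lowest in replicate 3. Other genes of the 56, among them Mgst1 and Gstk1, had it too. The part of choroid plexus cells in these values was not tested.

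Gpx7, the related soluble peroxidase of the endoplasmic reticulum, had 7.14, 7.06 and 7.05 in the transgenic animals, against 6.85, 6.99 and 6.88 in the wildtype animals. All transgenic animals lay above all wildtype animals, by a gap smaller than the range within either group, and wildtype replicate 2 was the highest of its group. The difference was 0.17 ± 0.06 (SE, limma adjusted p = 0.439), and 0.22 with Y-linked signal as a covariate. Gpx1, the abundant cytosolic selenoenzyme, had 8.32, 8.46 and 8.39 in the transgenic animals, against 8.32, 8.15 and 8.17 in the wildtype animals. The groups were separate by less than the rounding of these values, and the difference was 0.18 ± 0.07 (SE, limma adjusted p = 0.462). It was 0.07 with the covariate.

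Gpx4, which reduces lipid peroxides in membranes and limits ferroptosis, averaged 10.38 ± 0.13 in transgenic and 10.31 ± 0.10 in wildtype animals (SD, n = 3 each). Its interval was -0.14 to 0.27. Gpx3, the secreted peroxidase of plasma, had 7.29, 7.69 and 7.19 in the transgenic animals, against 7.06, 7.07 and 7.37 in the wildtype animals, and the groups overlapped. Gpx2, known from the gut, Gpx5, known from the epididymis, and Gpx6, known from olfactory tissue, were among the dimmest 33.3% of probes, where differences are compressed. Their differences ran from -0.15 to -0.02.

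None of the 4 measured peroxiredoxins had an unadjusted p under 0.05. Of these, 2 were above 0 and 2 below, with a median of 0.00. Prdx2, a cytosolic enzyme common in neurons and red cells, had 7.91, 8.11 and 8.43 in the transgenic animals, against 8.03, 7.92 and 7.73 in the wildtype animals. The groups overlapped, transgenic replicate 1 lying below wildtype replicates 1 and 2. Its difference was 0.25 ± 0.14 (SE, limma adjusted p = 0.548). Prdx1, a cytosolic NRF2 target, had 8.36, 8.33 and 8.25 in the transgenic animals, against 8.35, 8.36 and 8.31 in the wildtype animals, a difference of -0.03 with an interval of -0.17 to 0.11. Prdx3, of mitochondria, and Prdx4, of the secretory pathway, differed by 0.03 and -0.07.

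**Figure D2:**
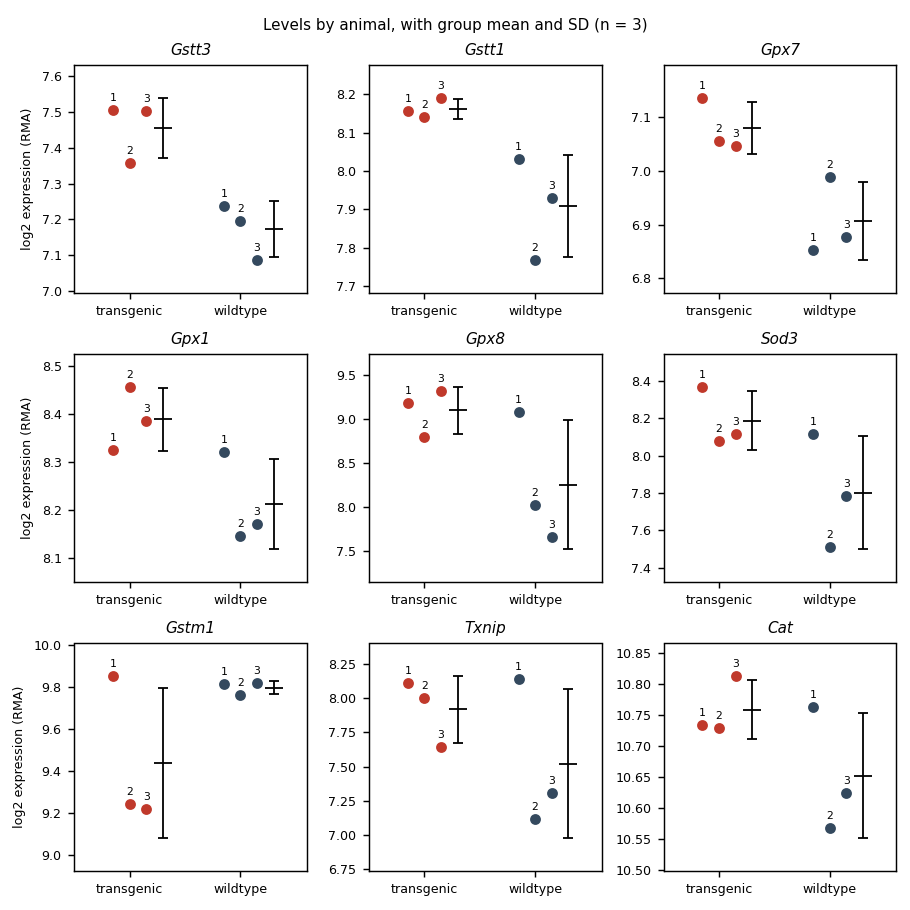
Log2 expression of 9 genes by animal, transgenic left and wildtype right, each panel on its own axis. Numbers are replicates, and the black marks are group mean and SD (n = 3). In Gpx8, Sod3, Txnip and Cat wildtype replicate 1 sits level with the transgenic animals, and in Gstm1 transgenic replicate 1 sits level with the wildtype animals.

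Glutathione transferases join glutathione to electrophiles, and the 17 cytosolic and related members split by class. Of these, 10 were above 0 and 7 below, and 2 had an unadjusted p under 0.05, against 49.9% above 0 and 10.6% with such a p over all probes. All 4 theta class genes were above 0. In GRCm38.p6 they are consecutive among the measured genes of chromosome 10, in the order Gstt3, Gstt1, Gstt4 and Gstt2. Gstt3 had 7.50, 7.36 and 7.50 in the transgenic animals, against 7.24, 7.20 and 7.09 in the wildtype animals, with no overlap. Gstt1, which also acts on small halogenated compounds, had 8.16, 8.14 and 8.19 in the transgenic animals, against 8.03, 7.77 and 7.93 in the wildtype animals, also with no overlap. In Gstt1 the transgenic animals lay close together, with an SD of 0.03, while the wildtype SD was 0.13.

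The difference was 0.28 ± 0.07 for Gstt3 and 0.25 ± 0.08 for Gstt1 (SE, limma adjusted p = 0.431 each), or 122% and 119% of the wildtype level. With Y-linked signal as a covariate they were 0.22 and 0.14, and wildtype replicate 1 was also below the transgenic animals in both. Gstt2 and Gstt4 differed by 0.22 ± 0.13 and 0.10 ± 0.09 (SE, limma adjusted p = 0.558 and 0.698), and their groups overlapped. Whether probes of these related genes detect each other's transcripts was not tested, so the values of single members are uncertain.

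The mu class, also a cluster, went both ways, with 2 of 6 genes above 0 and 4 below. Gstm1, a major form of astrocytes, had 9.85, 9.24 and 9.22 in transgenic replicates 1, 2 and 3, against 9.81, 9.76 and 9.82 in the wildtype animals. A single animal, transgenic replicate 1, lay with the wildtype group, whose SD was 0.03. The difference was -0.36 ± 0.16 (SE, limma adjusted p = 0.488), the lowest of the 56 genes, and -0.57 without transgenic replicate 1 (limma adjusted p = 0.163). With Y-linked signal as a covariate it was -0.38, and wildtype replicates 2 and 3 did not stand apart. Gstm2, its neighbour, had 6.60, 6.71 and 6.42 in the transgenic animals, against 6.58, 5.98 and 6.20 in the wildtype animals. Its difference was 0.32 ± 0.15 (SE, limma adjusted p = 0.504), or 0.01 with the covariate. Gstm3, Gstm4 and Gstm5 differed by -0.10, -0.11 and -0.10 and Gstm7 by 0.17.

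Astrocyte markers are given beside Gstm1, and the part of astrocytes in its values was not tested. Of 14 measured, 9 were above 0 and 5 below, with a median of 0.08. Their mean relative level was 0.00, 0.05 and 0.07 in the transgenic animals, against 0.00, -0.10 and -0.02 in the wildtype animals. At an unadjusted p under 0.05 there were 3 higher and 0 lower, against 5.81% and 4.8% of all probes. Without overlap, Ntsr2, Sox9 and Slc1a3 were higher in the transgenic animals, by 0.23, 0.19 and 0.08. Slc4a4 and Acsbg1 were lower without overlap, with differences of -0.12 and -0.05.

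Of the remaining transferases, Gsto1, which reduces dehydroascorbate, had 8.64, 8.76 and 8.77 in the transgenic animals, against 8.59, 8.46 and 8.65 in the wildtype animals. The groups overlapped narrowly, and the difference was 0.15 ± 0.07 (SE, limma adjusted p = 0.504). Gsta4, which conjugates the lipid peroxidation product 4-hydroxynonenal, differed by -0.08 with an interval of -0.27 to 0.11. Gstk1, Gsto2 and Gsta3 had differences of 0.14, 0.08 and 0.09, and Gstz1 and Gstp3 of -0.11 and -0.15. The microsomal Mgst1, which conjugates and reduces lipid hydroperoxides, had 6.86, 6.73 and 6.92 in the transgenic animals, against 6.73, 6.17 and 6.70 in the wildtype animals, and the groups overlapped. Mgst3 differed by -0.01 ± 0.09 (SE).

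Thioredoxin family genes numbered 17, with 11 above 0, 6 below and none at an unadjusted p under 0.05. Txnip, the thioredoxin-binding protein that also limits glucose uptake, had the widest spread. It had 8.11, 8.00 and 7.65 in the transgenic animals, against 8.14, 7.11 and 7.31 in wildtype replicates 1, 2 and 3. Wildtype replicate 1 was the highest of all 6 arrays and the other wildtype animals the lowest. The difference of 0.40 ± 0.26 (SE, limma adjusted p = 0.595) turned to -0.20 with Y-linked signal as a covariate and was 0.71 without wildtype replicate 1.

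Txndc12, a disulfide exchange protein of the endoplasmic reticulum, had 9.02, 9.00 and 9.08 in the transgenic animals, against 8.95, 8.80 and 8.89 in the wildtype animals. There was no overlap, and the difference was 0.15 ± 0.06 (SE, limma adjusted p = 0.474). Txndc11, which acts with dual oxidases, differed by 0.12 ± 0.07 (SE, limma adjusted p = 0.562). Txndc5, another protein of that compartment, differed by 0.08, and Txndc15 and Txndc16 by -0.01 and -0.02.

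Mitochondrial thioredoxin and its reductase differed little. Txn2, mitochondrial thioredoxin, averaged 10.04 ± 0.05 in transgenic and 10.06 ± 0.06 in wildtype animals (SD, n = 3 each), with an interval of -0.17 to 0.13. Its reductase Txnrd2 differed by -0.04 ± 0.06 (SE), with a probe among the dimmest 33.3% of those tested, where differences are compressed. The probe of cytosolic thioredoxin, Txn1, was among the dimmest 33.3% of the array, with 4.17 to 4.77 in the transgenic and 4.25 to 4.66 in the wildtype animals. The spliceosomal relatives Txnl4a and Txnl4b differed by 0.01 and -0.04. Txnl1 and Txndc9 had differences of 0.02 and 0.00, and Txndc17 of -0.04. Txndc2 and Txndc8, known from sperm, and the reductase Txnrd3, known from testis, were dim here and differed by 0.07, 0.08 and 0.09.

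None of the quinone reductases, heme oxygenases or Gclc had an unadjusted p under 0.05. Hmox1, the heme-degrading enzyme induced by stress, had 6.94, 6.51 and 6.67 in the transgenic animals, against 6.51, 6.44 and 6.69 in the wildtype animals. The groups overlapped, transgenic replicate 1 alone lying above the wildtype range, and the difference was 0.16 ± 0.12 (SE, limma adjusted p = 0.638). Nqo1, a quinone reductase often used to report NRF2 activity, averaged 6.24 ± 0.15 in transgenic and 6.12 ± 0.21 in wildtype animals (SD, n = 3 each). Its difference of 0.12 was -0.12 with Y-linked signal as a covariate. The probes of Nqo1 and Hmox1, like those of Gstm2, Mgst1 and Prdx4, were among the dimmest 33.3% of those tested, where differences are compressed. Nqo2 had 7.70, 7.77 and 7.72 in the transgenic animals, against 7.74, 7.50 and 7.49 in the wildtype animals, where replicate 1 lay inside the transgenic range. Gclc, the catalytic subunit of glutamate-cysteine ligase, had 9.68, 9.64 and 9.70 in the transgenic animals, against 9.68, 9.64 and 9.51 in the wildtype animals, an interval of -0.09 to 0.22. The constitutive Hmox2 differed by 0.02 ± 0.09 (SE).

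Several of the higher genes shared a pattern across animals. In 16 of the 56 genes, 28.6%, wildtype replicates 2 and 3 both lay below the 4 other arrays, against 12.9% of all probes. These were Gstt3, Gstt1, Gstt2, Gstm2, Gsto2, Gpx8, Gpx1, Sod3, Cat, Mgst1, Nqo1, Nqo2, Txnip, Txndc5, Txndc11 and Txndc12. Set against the mean over all 6 animals, the 56 genes together were at 0.00, 0.04 and 0.08 in the transgenic animals, against 0.03, -0.10 and -0.05 in wildtype replicates 1, 2 and 3. Wildtype replicate 1 thus lay within the transgenic range, and the other wildtype animals lay below it. For the meningeal markers 14 of 16 had this order, for the choroid plexus markers 8 of 10, for endothelial markers 12 of 18 and for astrocyte markers 7 of 14. It held for 3 of 14 microglia markers, 3 of 12 oligodendrocyte markers, 2 of 14 neuron markers and 0 of 3 erythroid markers. Whether cell makeup, sex or another trait of these animals sets this order was not tested.

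**Figure D3:**
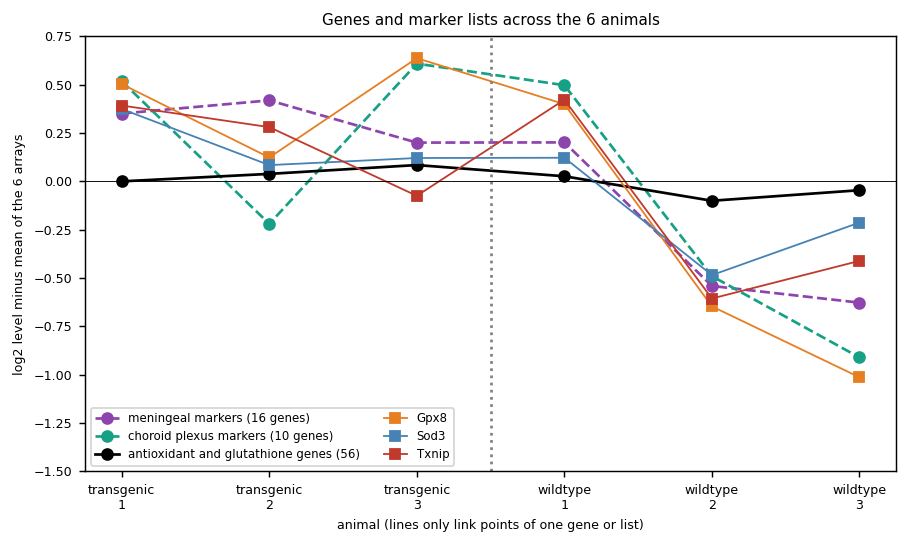
Log2 level relative to the mean of the 6 arrays, by animal, transgenic left of the dotted line and wildtype right. Gpx8, Sod3, Txnip and both marker lists are low in wildtype replicates 2 and 3 and near or within the transgenic range in wildtype replicate 1, while the mean of the 56 genes moves less.

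With Y-linked signal as a covariate, 34 of the 56 genes were above 0, where 54.2% of all genes were, and the median was 0.01, equal to that of all genes at 2 decimals. None had an unadjusted p under 0.05, where 2.96% of all probes did. Without wildtype replicates 2 and 3 the median was likewise 0.01, with 33 above 0. Both rest on wildtype replicate 1 as the only wildtype animal without this signal. Conversely, without wildtype replicate 1, 12 genes had an unadjusted p under 0.05, 11 of them higher, where 12.6% of all probes had such a p. That fit compares wildtype animals that all carried the Y-linked signal with transgenic animals that did not.

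**Figure D4:**
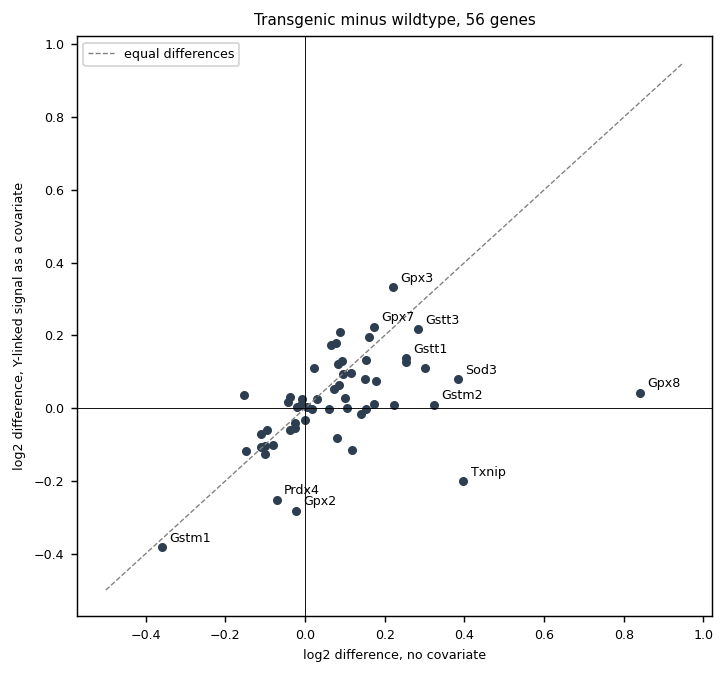
Log2 difference of each of the 56 genes, transgenic minus wildtype, without a covariate (horizontal) and with Y-linked signal as a covariate (vertical). Gpx8, Sod3, Gstm2 and Txnip lie far below the dashed line of equal differences, while Gstm1, Gpx7 and Gstt3 lie close to it.

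The wider pathway outside these families gave no gene past a false discovery rate of 10% in limma either. Of 22 measured regulators and targets of NRF2, 19 were above 0 with a median of 0.09, and 6 had an unadjusted p under 0.05, all higher. Over all probes 49.9% were above 0, and 5.81% were higher with such a p and 4.8% lower, which is also the background for the lists that follow. The median was 0.05 with Y-linked signal as a covariate. Cbr1, a carbonyl reductase, differed by 0.24 ± 0.07, Slc3a2, the heavy chain of the cystine transporter, by 0.17 ± 0.06 and Pgd, an NADPH source of the pentose phosphate pathway, by 0.16 ± 0.06 (SE, limma adjusted p = 0.431, 0.433 and 0.433). Named after their values were seen, Nfe2l2 itself differed by 0.24 ± 0.09 (SE, limma adjusted p = 0.438) and Keap1 by 0.00 ± 0.06. Nfe2l2 had 8.80, 8.74 and 8.93 in the transgenic animals, against 8.74, 8.52 and 8.51 in the wildtype animals. Wildtype replicate 1 was level with transgenic replicate 2, and in 8 of the 22 genes wildtype replicates 2 and 3 were below the 4 other arrays, against 12.9% of all probes.

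Glutathione turnover genes were divided, with 12 of 21 above 0 and a median of 0.02. At an unadjusted p under 0.05 there were 1 higher and 1 lower. Glrx, which removes glutathione from proteins, had 9.99, 9.85 and 10.12 in the transgenic animals, against 9.78, 9.61 and 9.71 in the wildtype animals, with no overlap. Its difference was 0.28 ± 0.09 (SE, limma adjusted p = 0.431). Esd, an S-formylglutathione hydrolase, differed by -0.34 ± 0.14 and Nnt, the mitochondrial NADPH source, by 0.16 ± 0.07 (SE, limma adjusted p = 0.461 and 0.483). Gss and Gsr, which complete glutathione synthesis and reduce oxidised glutathione, differed by 0.02 and 0.03 and were named after their values were seen.

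Of 17 genes of oxidant sources 9 were above 0, with a median of 0.03 and none at an unadjusted p under 0.05. Maoa, a monoamine oxidase, differed by -0.14 ± 0.07, the endothelial nitric oxide synthase Nos3 by 0.15 ± 0.07 and the phagocyte oxidase subunit Cybb by 0.20 ± 0.11 (SE, limma adjusted p = 0.499, 0.508 and 0.548). Of 25 other redox genes, among them selenoproteins, methionine sulfoxide reductases and metallothioneins, 12 were above 0 with a median of -0.03. Selenok, a selenoprotein of the endoplasmic reticulum, had 8.74, 8.71 and 8.65 in the transgenic animals, against 8.91, 9.02 and 9.24 in the wildtype animals. The groups did not overlap, the transgenic animals being lower, and the difference was -0.35 ± 0.09 (SE, limma adjusted p = 0.431). The stress-induced sestrin Sesn1 differed by 0.27 ± 0.09 and the selenium carrier Selenop by -0.15 ± 0.06 (SE, limma adjusted p = 0.432 and 0.474).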

How the data were processed

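The authors deposited log2 values, 1 per probe and array. RMA made them, per the submitters' processing notes, which also name the build mm8. RMA corrects background, normalizes between arrays and summarises probes. No version is named in the sources used here. Array medians lay between 7.44 and 7.47. Of 23332 probes, 14996 had 1 gene symbol in GEO's platform annotation and were tested, 1019 had several and 7317 are unnamed here. Among those with several, 7 carried a symbol of these families and were not used here.

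Transgenic and wildtype animals (n = 3 each, separate animals per the labels) were set against each other in limma 3.58.1 under R 4.3.3, with lmFit and eBayes and no covariate, two-sided, with Benjamini-Hochberg adjustment over all 14996 probes. The series states thresholds of a 10% false discovery rate and 2-fold and names no test. With 3 animals a group, an exact permutation p cannot go below 0.1. Fits were tested on simulated data with independent noise per probe, which lacked the traits that some of these animals share. The median residual SD was 0.098.

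The genes and lists were chosen with earlier results of these data known. Named genes are those with the 10 smallest p values, the 3 smallest per family, and 15 measured of 20 fixed genes, 28 in all, with the 3 of smallest p per pathway list. Names were checked in RefSeq's GRCm38.p6 annotation, which matched all 56 and supplied gene order and promoters, no probe coordinates. Other settings tried were the replicate block, other normalizations, filters, variance models and probe sets, the Y-linked signal of Eif2s3y and Kdm5d as a covariate, and arrays left out. Marker lists covered meninges, choroid plexus, endothelium, astrocytes, microglia, oligodendrocytes, neurons and erythroid cells.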

Additional observations from a re-analysis of the deposited data

How the results depend on the processing

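Of the 56 genes, 0 passed a false discovery rate of 10% in limma under every alternative but one, the fit without wildtype replicate 1, where Gpx8 passed, and leaving out single arrays gave 0 to 1. No gene of the 4 pathway lists passed under any alternative. The number at an unadjusted p under 0.05 was 6, with 3 when all probes were tested together, 0 with the Y-linked covariate and 0 without the wildtype arrays that carried it. Of all probes 10.6% had such a p in the main fit, 9.18% with all probes tested and 2.96% with the Y-linked covariate. The number of the 56 genes was 2 without wildtype replicate 3, and 3 without wildtype replicate 2 or transgenic replicate 3. There, in that order, 7.45%, 6.84% and 6.82% of all probes had such a p. Without wildtype replicate 1 it was 12, where 12.6% of all probes did. It was 7 without transgenic replicate 1, 5 without transgenic replicate 2 and 8 of 45 without the dimmest 33.3%. There 10.6%, 8.89% and 13.2% of all probes did. Of all probes 7 passed the rate, with 0 under the replicate block, with all probes tested, with the Y-linked covariate and without both wildtype arrays of that signal, 11 without the dimmest 33.3%, and 12 with trend and robust estimation and with array weights. Leaving out single arrays gave 0 to 103 of these, and 0 to 27 past both the rate and 2-fold, the highest of each without wildtype replicate 1. The median of the 56 genes stayed above 0, from 0.01 with the arrays of Y-linked signal left out to 0.10 without transgenic replicate 1.

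The replicate numbers were not taken as pairs, since deviations of same-numbered animals correlated at 0.23, 0.15 and 0.02. Under the replicate block 0 of the 56 genes passed and 6 had an unadjusted p under 0.05, where 12% of all probes did. With the Y-linked covariate the sign turned in 15 of the 56 genes, none past the threshold. The 7 of these among the 28 named genes were Txnip, from a difference of 0.40 to -0.20, and, from smaller ones, Cat (-0.00082), Gclc (-0.0034), Mgst3 (0.0091), Nqo1 (-0.12), Nqo2 (-0.0031) and Txn2 (0.0040). Without the wildtype arrays of that signal it turned in 16 genes, 8 of them named, which were Cat (-0.0047), Gclc (-0.0044), Gstm2 (-0.0050), Mgst3 (0.011), Nqo1 (-0.12), Nqo2 (-0.0099), Txn2 (0.0043) and Txnip (-0.22), in a fit where the lone wildtype animal is assumed to vary like the others. Further quantile normalization turned 5 genes, of which Hmox2 (-0.0058) was named, and array weights 3, none of them named. In at least 1 of the fits with a single array left out 18 of the 56 changed sign. Among the 7 named ones the differences ranged from -0.10 to 0.043 in Mgst3, -0.026 to 0.092 in Hmox2, -0.050 to 0.0055 in Prdx1, -0.0079 to 0.15 in Sod2, -0.025 to 0.27 in Txn1, -0.14 to 0.025 in Prdx4 and -0.049 to 0.015 in Txn2. None of these passed the threshold in any setting. Cat, Gpx8, Gstm2, Mgst1, Nqo1, Nqo2, Sod3 and Txnip, among others, therefore depend on which wildtype animals are compared. Gstt3 stayed between 0.22 and 0.33, Gpx7 between 0.15 and 0.23 and Gstm1 between -0.57 and -0.25 over all settings. Gstt3, Gpx7 and Gstm1 did not pass the threshold in any setting (lowest limma adjusted p = 0.259, 0.314 and 0.163). The number of arrays limits the precision, and dim probes give compressed differences.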
